A study of Homo sapiens with 6 samples.

Results

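Matrix metalloproteinases (MMPs) are zinc proteases that cut collagens and other extracellular proteins, and the tissue inhibitors of metalloproteinases (TIMPs) bind and block them. Transcripts of 10 such genes were followed here out of the 64253 gene identifiers of a count table from NCI-H1299 cells, an established line from a human lung carcinoma. The genes were picked by name: the membrane-anchored MMP14, MMP15, MMP16, MMP17 and MMP24, the secreted MMP1 and MMP2, and the inhibitors TIMP1, TIMP2 and TIMP3. They were picked with results of the same contrast in view, above all the fold changes of MMP14, MMP1 and MMP17. Values and calls of these 10 genes are therefore a description, and no p-value is given for them.

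Cells overexpressing MTSS1 (3 libraries) were set against wild type cells (3 libraries). MTSS1 is a membrane-bending scaffold protein that acts on the actin cytoskeleton. Per the labels' protocols, the overexpressing cells carried an mCherry-tagged MTSS1 plasmid, were selected with hygromycin and were sorted by flow cytometry, and HEK293T cells are named in connection with the transfection. Both groups are NCI-H1299 cells grown in serum-containing medium, there was no control-plasmid group, and the labels do not say whether the sorted cells were 1 clone or a pool. Plasmid, selection and sorting thus cannot be told apart from MTSS1 itself. The study's title asks how MTSS1 affects NF-κB activity through phosphorylation of its RelA subunit, which transcript counts do not measure.

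MMPs are made as inactive proenzymes. Furin, a protease of the secretory pathway, can cut the prodomain off the membrane-anchored ones on their way to the cell surface, while the secreted collagenase and gelatinase arrive there uncut and are activated by other proteases. MMP14, also called MT1-MMP, is the main collagenase at the surface of invading cells. It activates pro-MMP2 in a complex that uses TIMP2 as the bridge, so that TIMP2 serves as a cofactor and, in excess, as an inhibitor. MMP17, also called MT4-MMP, is held by a glycolipid anchor, whereas MMP14, MMP15, MMP16 and MMP24 span the membrane.

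The coding sequences show what these enzymes share and where the anchored ones differ from MMP1 and MMP2. In the longest GENCODE 29 coding sequence of each MMP, a script found 1 catalytic zinc-binding site, in which 3 histidines hold the zinc. The site is shown for 6 of them, on the GRCh38 build and 5′ to 3′ along the gene's strand, with the histidine codons in capitals. It lies within exon 5 of the transcript in MMP14 (chr14:22843283-22843315), MMP15 (chr16:58040563-58040595), MMP17 (chr12:131841659-131841691), MMP24 (chr20:35263817-35263849) and MMP1 (chr11:102795549-102795581, minus strand), and within exon 8 in MMP2 (chr16:55491827-55491859).
MMP14: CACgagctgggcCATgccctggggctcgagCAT
MMP15: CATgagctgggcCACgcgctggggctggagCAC
MMP17: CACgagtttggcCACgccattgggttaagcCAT
MMP24: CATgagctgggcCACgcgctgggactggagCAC
MMP1: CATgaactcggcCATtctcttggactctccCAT
MMP2: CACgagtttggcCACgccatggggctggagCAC
Of the 33 bases, 32 were identical between MMP15 and MMP24 and 23 between MMP14 and MMP17. The lowest identity was 18 bases, between MMP1 and MMP2.

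A furin-type site (arginine, any residue, lysine or arginine, then arginine) was searched for between residue 80 and the zinc site. It was found in 5 of 5 membrane-anchored MMPs and in neither MMP1 nor MMP2. Other secreted MMPs were not searched, so no difference between the classes is read from it. Its codons are shown for 4 of them, with those for arginine and lysine in capitals. The positions are chr14:22841977-22841988 for MMP14, chr16:58039996-58040007 for MMP15, chr12:131838683-131838694 for MMP17 and chr20:35251963-35251974 for MMP24.
MMP14: CGAAGGAAGCGC
MMP15: CGGctgCGGCGA
MMP17: CGCAGGAGACGC
MMP24: AGAaacAAGCGC
These sequences come from the reference and say nothing of the alleles of the cell line. The site returns below with FURIN itself.

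Reads of 50 cycles could be told apart between these genes. None of the 10 shared any 50-base word of its annotated transcripts with another of the 10. MMP14, MMP15, MMP17, TIMP1 and TIMP3 shared none with any other gene on either strand. MMP24 shared 18.7% of its words with genes on the opposite strand, MMP24OS among them. TIMP2 shared 8.28% of all its words on either strand, and 2.68% of all its words on its own strand, with CEP295NL. The share was 2.92% for MMP1, on the opposite strand, and 2.57% for MMP2, on its own strand. Since the counting may not have used strand, MMP24 counts are uncertain: MMP24OS held 2679 counts in overexpressing and 3073 in wild type libraries, far above those of MMP24.

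Total counts per library ranged from 13883380 to 25741708 in overexpressing cells and from 19018751 to 29479453 in wild type cells. MTSS1 itself stood at 550, 544 and 568 CPM (read counts over the library total, scaled with TMM factors) in overexpressing libraries, against 24.2, 18 and 24.3 CPM in wild type libraries, which fits the labels. Of 10 listed markers of lung epithelium and adenocarcinoma, 6 averaged under 1 CPM and SFTPB was listed at 0, while the keratin genes KRT8 and KRT18 were well detected. The list summed to 259 to 470 CPM in overexpressing and 571 to 853 CPM in wild type libraries, without overlap; its part in the results below was not tested. KRT18 and KRT8 carried that sum, with means of 299 and 49.6 CPM in overexpressing and 522 and 165 CPM in wild type cells. KRT8 passed the threshold (log2 fold change -1.74, edgeR adjusted p = 0.011), and KRT18 did not (-0.8, edgeR adjusted p = 0.061). The other tested markers had positive values that also missed the threshold (log2 fold change 1.15 for NKX2-1, 1.05 for KRT7, 0.66 for EPCAM). Fibroblast, endothelial and leukocyte markers were near 0: their summed levels were 5.07 to 10.3, 1.80 to 2.35 and 0.881 to 3.92 CPM in overexpressing libraries and 5.03 to 6.91, 2.45 to 4.62 and 1.75 to 3.84 CPM in wild type libraries. Of 4 HEK293T markers, LIN28B stood at 213 CPM in overexpressing and 291 CPM in wild type cells, so that it is expressed without the plasmid. The rest were much lower, at 0.0267 and 0.0728 CPM for PAX2, 4.58 and 4.42 CPM for NEFL, and 5.39 and 5.2 CPM for NEFM, in the same order. The second principal component (32.5% of the variance) set the first library of each group apart, and the first (34.1%) separated the groups.

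**Figure D1:**
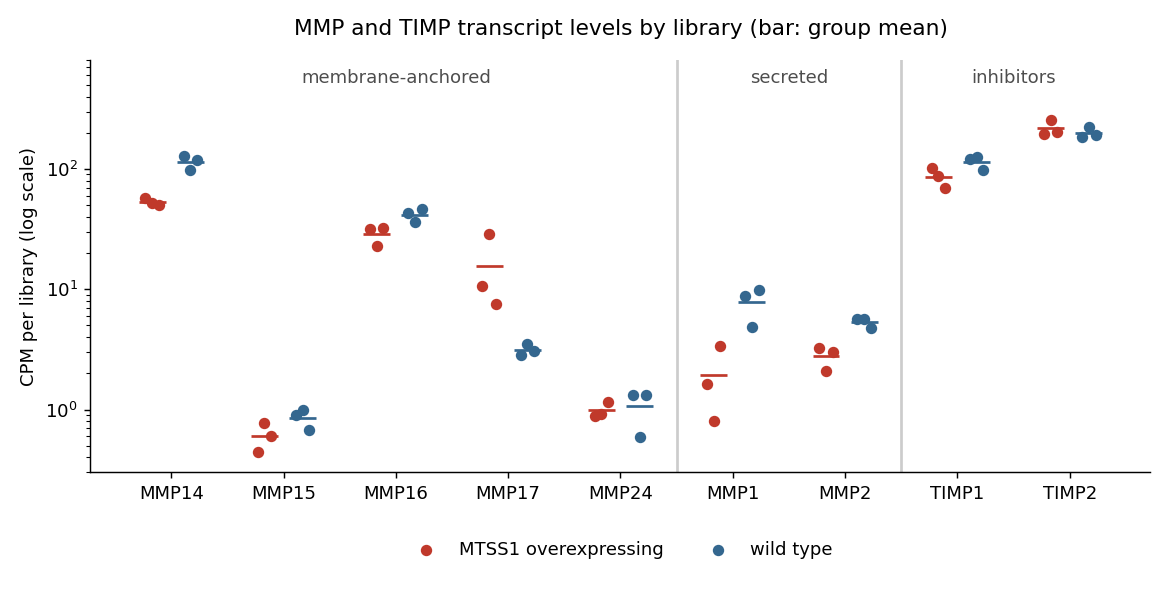
Levels of 9 of the 10 genes in CPM on a log axis, 1 point per library, with MTSS1 overexpressing libraries (red) left of wild type ones (blue) and bars at group means; TIMP3, listed at 0 in 5 libraries, is left out. MMP14, MMP16, MMP1 and MMP2 are lower in every overexpressing library than in any wild type library, MMP17 is higher, and the other 4 overlap.

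In overexpressing cells the membrane-anchored MMP17 was higher, and MMP14 and the secreted MMP1 were lower, than in wild type cells. MMP14 stood at 0.462 and MMP1 at 0.247 times the wild type mean, and MMP17 at 5.00 times that mean. The main inhibitor genes TIMP1 and TIMP2 stayed within 1.5 times of wild type and did not pass the threshold. Of the 10 genes, 9 had enough counts to be tested with edgeR's quasi-likelihood test across 16091 genes, and 3 passed an adjusted p of 0.05, 1 higher and 2 lower. Over all genes tested, 4.28% passed, 1.82% higher and 2.45% lower; since the 10 genes were chosen on this contrast, nothing is read from the difference. The CPM of the 2 groups did not overlap for 5 of the 9, 1 higher and 4 lower, against 25.5% of all genes tested, 12.1% higher and 13.5% lower. Other fits named below had their own background of genes passing: 22.7% with title pairs as a block, 2.09% with an offset by neighbouring genes, 7.34% with DESeq2, 5.19% with no filter on low counts, 4.25% with other size factors and 0.807% without both first libraries. Leaving out replicate 1, 2 or 3 gave 1.96%, 1.51% and 1.18% for overexpressing libraries and 2.06%, 2.1% and 0.874% for wild type libraries. Bulk RNA does not tell a change in each cell from a change in the share of cells that express a gene.

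Membrane-anchored enzymes did not share a direction. MMP14 (ENSG00000157227, chromosome 14, 22836557 to 22849027, plus strand, GRCh38) was the most abundant of them. It stood at 57.1, 51.8 and 50.1 CPM in overexpressing libraries, against 128, 98.4 and 118 CPM in wild type libraries. The overexpressing libraries lay close together, and each was below every wild type library. The means were 53.0 ± 3.63 and 115 ± 15.1 CPM (SD, n = 3 each), a log2 fold change of -1.12 (SE 0.11). Leaving out any 1 library gave log2 fold changes between -1.22 and -1.03, all past the threshold. The 50 tested genes nearest to it on the chromosome had a median of 0.27, and with that median as an offset its value was -1.38, still past the threshold.

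MMP17 (ENSG00000198598, chromosome 12, 131828393 to 131851783) went the other way. It stood at 10.6, 29 and 7.48 CPM in overexpressing libraries, against 2.86, 3.51 and 3.04 CPM in wild type libraries. The groups did not overlap, but overexpressing replicate 2 was far above the other 2 libraries of its group, which gave 15.7 ± 11.6 CPM against 3.14 ± 0.332 CPM in wild type (SD, n = 3 each). The log2 fold change was 2.32 (SE 0.45). Without overexpressing replicate 2 it was 1.52 and passed. Without any 1 of the wild type libraries the value was 2.27, 2.41 or 2.30 and did not pass. The neighbours of MMP17 had a median of 0.09.

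MMP16 (ENSG00000156103, chromosome 8, 88032009 to 88328025), a transmembrane enzyme known as MT3-MMP, stood at 31.4, 22.8 and 32.3 CPM in overexpressing libraries, against 42.9, 35.9 and 46.3 CPM in wild type libraries. Each overexpressing library was below each wild type library. The log2 fold change of -0.53 (SE 0.15) did not pass the threshold, but passed with the title pairs as a block (-0.54). These pairs are 3 neighbouring numbers in the library titles, each of 1 overexpressing and 1 wild type library.

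MMP15 and MMP24, the MT2-MMP and MT5-MMP genes, were scarce. MMP15 had 6, 20 and 15 counts in overexpressing and 17, 30 and 18 in wild type libraries, which is 0.441, 0.769 and 0.600 CPM against 0.902, 0.992 and 0.676 CPM. MMP24 had 12, 24 and 29 counts in overexpressing and 25, 18 and 35 in wild type libraries. Both overlapped between groups, and their log2 fold changes of -0.47 (SE 0.42) and -0.10 (SE 0.42) carry errors about as large as, or larger than, the values. The value of MMP24 turned positive in 3 other fits, 0.06 without wild type replicate 1, 0.07 without wild type replicate 3 and 0.13 without both first libraries.

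**Figure D2:**
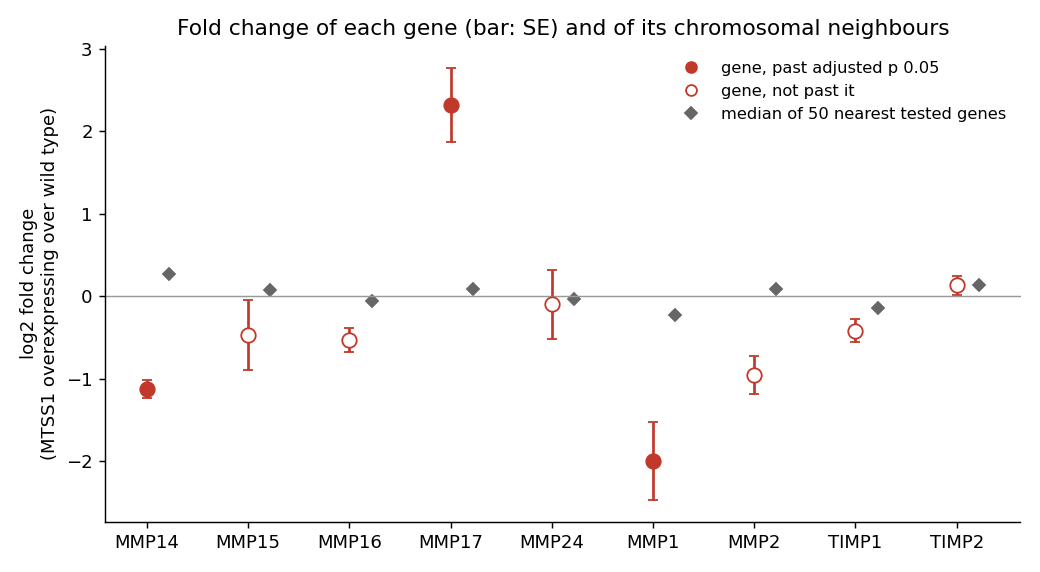
Log2 fold change of each gene, MTSS1 overexpressing over wild type, with its SE as the bar, filled where the adjusted p was under 0.05, and beside it (grey diamonds) the median log2 fold change of the 50 nearest tested genes. The neighbour medians lie between -0.23 and 0.27, while MMP14, MMP1 and MMP17 lie at -1.12, -2.0 and 2.32.

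Levels of different genes are compared per kilobase of annotated exon, as an allowance for transcript length. The length counts the exons of all annotated transcripts of a gene, and which of them the cells express was not examined. Orders and shares of different genes depend on that length. On this scale the 5 membrane-anchored genes summed to 18.3, 21.1 and 16.2 CPM per kilobase in overexpressing libraries, against 33.4, 26.2 and 31.4 in wild type libraries. MMP14 supplied 69.8%, 55.0% and 69.4% of that sum in overexpressing libraries, against 85.8%, 84.0% and 84.0% in wild type libraries. The share of MMP17 was 14.4%, 34.3% and 11.6% in overexpressing libraries, against 2.14%, 3.34% and 2.42% in wild type libraries. MMP14 thus remained the leading membrane-anchored transcript in all 6 libraries, by 4.84, 1.60 and 6.00 times over MMP17 in overexpressing cells and by 40.1, 25.2 and 34.7 times in wild type cells. MMP16 held 8.89% to 16.5% in overexpressing and 10.6% to 12.2% in wild type libraries. These shares are built from the members that chose the set and are given without a test.

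**Figure D3:**
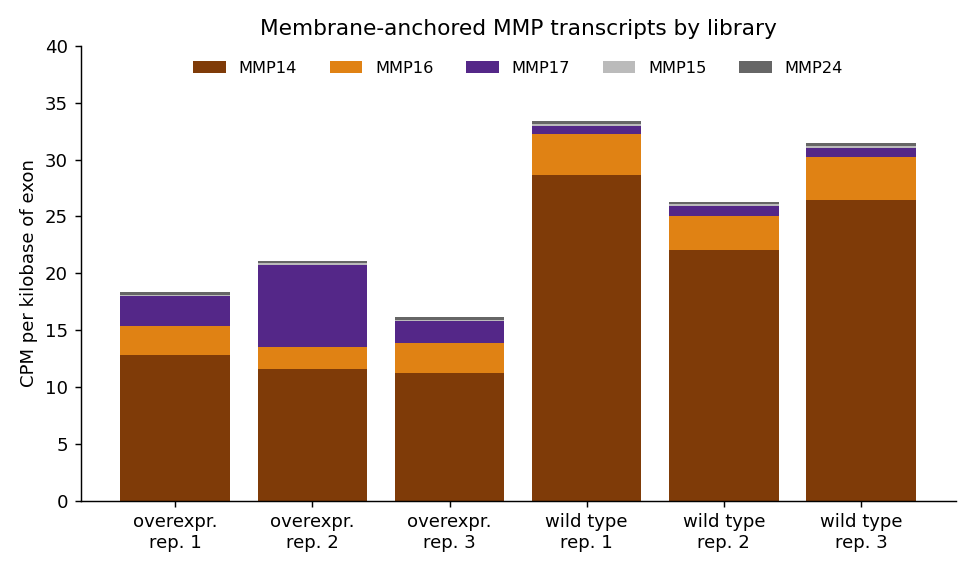
Stacked level of the 5 membrane-anchored MMP genes in each library, in CPM per kilobase of exon, with MTSS1 overexpressing libraries on the left and wild type libraries on the right. The sum is 16.2 to 21.1 in overexpressing and 26.2 to 33.4 in wild type libraries, and the MMP17 part is widest in overexpressing replicate 2.

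Both secreted members were lower in every overexpressing library than in any wild type library. MMP1 (ENSG00000196611, chromosome 11, 102789920 to 102798160, minus strand), the interstitial collagenase that cuts fibrillar collagen, stood at 1.62, 0.807 and 3.40 CPM in overexpressing libraries, against 8.86, 4.83 and 9.87 CPM in wild type libraries. These levels rest on 22, 21 and 85 counts in overexpressing and 167, 146 and 263 in wild type libraries. The spread within each group was wide: the means were 1.94 ± 1.33 and 7.85 ± 2.67 CPM (SD, n = 3 each), with a log2 fold change of -2.0 (SE 0.47). When 1 library was left out, MMP1 passed only without overexpressing replicate 3, where its value was lowest at -2.75. The highest value was -1.59, without overexpressing replicate 2. It also did not pass with the offset by its neighbours (-1.77), whose median was -0.23.

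MMP2 (ENSG00000087245, chromosome 16, 55389700 to 55506691), gelatinase A and the substrate of MMP14, stood at 3.23, 2.11 and 3.00 CPM in overexpressing libraries, against 5.67, 5.66 and 4.8 CPM in wild type libraries. The groups were apart and narrow, 2.78 ± 0.590 and 5.38 ± 0.497 CPM (SD, n = 3 each). The log2 fold change of -0.96 (SE 0.23) did not pass the threshold, and passed with the block (-0.97). Both genes of the activation pair thus had lower mean levels in overexpressing cells, MMP14 past the threshold and MMP2 not. Whether secreted and membrane-anchored genes differ was not tested: the medians were -1.48 over the 2 secreted genes and -0.47 over the 5 anchored ones, beside 0.00 over all genes tested.

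Per kilobase of exon, TIMP1 and TIMP2 had the highest mean levels of the set in both groups and TIMP3 the lowest. TIMP1 (ENSG00000102265, chromosome X, 47582313 to 47586789), a soluble inhibitor that acts poorly on most membrane-anchored MMPs and whose gene lies inside SYN1 on the opposite strand, stood at 102, 87.6 and 68.9 CPM in overexpressing libraries, against 120, 125 and 98.6 CPM in wild type libraries. The ranges overlapped, since overexpressing replicate 1 exceeded wild type replicate 3. The log2 fold change of -0.42 (SE 0.14) did not pass, and passed with the block (-0.43), where the 3 pairs gave -0.24, -0.52 and -0.52.

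TIMP2 (ENSG00000035862, chromosome 17, 78852977 to 78925387, minus strand), the inhibitor that bridges MMP14 and pro-MMP2, stood at 196, 256 and 204 CPM in overexpressing libraries, against 185, 225 and 191 CPM in wild type libraries. Its groups overlapped. The log2 fold change of 0.13 (SE 0.12) equalled the median of its neighbours, 0.13, and was -0.01 with them as an offset. TIMP3, the inhibitor that binds to the matrix, had 3 counts in overexpressing replicate 3 and 0 in the other 5 libraries, where 3 counts would stand for 0.0992 to 0.220 CPM. It was not tested, and no fold is given.

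With MMP14 lower and TIMP2 near its wild type level, the transcript ratio of TIMP2 to MMP14 per kilobase was 2.72, 3.91 and 3.24 in overexpressing libraries, against 1.14, 1.81 and 1.28 in wild type libraries. The ratio of the 3 TIMPs to the 5 membrane-anchored MMPs was 5.51, 4.84 and 5.02 in overexpressing libraries, against 3.32, 4.62 and 3.12 in wild type libraries. Neither ratio overlapped between groups, the second by a narrow margin. Ratios of transcripts do not give ratios of proteins, and no test is given for them.

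Ordered by mean level per kilobase of exon, the overexpressing cells ran TIMP1 (55.9), TIMP2 (38.8), MMP14 (11.9), MMP17 (3.92), MMP16 (2.38), MMP1 (0.986), MMP2 (0.564), MMP24 (0.224), MMP15 (0.137) and TIMP3 (0.0087). The wild type order was TIMP1 (74.5), TIMP2 (35.5), MMP14 (25.7), MMP1 (3.99), MMP16 (3.44), MMP2 (1.09), MMP17 (0.784), MMP24 (0.244), MMP15 (0.194) and TIMP3 (0). The first 3 places were the same in both groups, and MMP17 ranked above MMP16, MMP1 and MMP2 in overexpressing cells. Its place above MMP16 rested on overexpressing replicate 2: without it, the mean was 2.26 for MMP17 and 2.63 for MMP16, while MMP1 (1.27) and MMP2 (0.632) stayed below. In overexpressing cells the library ranges of TIMP1 (44.7 to 66.1) and TIMP2 (34.8 to 45.4) overlapped, as did those of MMP17 (1.87 to 7.24) and MMP16 (1.88 to 2.67) and of MMP1 (0.410 to 1.73) and MMP2 (0.429 to 0.655). In wild type cells the ranges of MMP1 (2.45 to 5.01) and MMP16 (2.96 to 3.82) overlapped, and those of MMP24 (0.135 to 0.300) and MMP15 (0.153 to 0.225). Other neighbours in either order were separated. In CPM, with no allowance for length, some places were reversed. TIMP2 (219 in overexpressing and 200 in wild type cells) was then above TIMP1 (86.1 and 115). In overexpressing cells MMP16 (28.8) was above MMP17 (15.7), and MMP2 (2.78) above MMP1 (1.94). In wild type cells MMP16 (41.7) was above MMP1 (7.85).

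Genes with the most similar profile were found by the root mean square difference of centred log2 CPM over the 6 libraries, among 10938 genes with a symbol and a mean of at least 5 CPM. Since both groups entered the picking, a direction or peak shared with the member follows from it and is no separate result. For MMP14 these genes were CPPED1 (0.129), SEC14L2 (0.133) and TMEM200A (0.134), all lower in overexpressing cells. TMEM200A stood at 52.7, 42.2 and 53.4 CPM in overexpressing libraries, against 123, 85.8 and 122 CPM in wild type libraries. For MMP17 the nearest were PNMA6A (0.509), the neuronal splicing regulator gene NOVA2 (0.540) and ARMCX4 (0.549), all higher in overexpressing cells and all farther from it than the nearest genes were from MMP14. PNMA6A stood at 7.93, 13.1 and 8.12 CPM in overexpressing libraries, against 3.13, 4.76 and 3.00 CPM in wild type libraries, with a peak in overexpressing replicate 2 as in MMP17. PNMA6A has closely related copies on the X chromosome, so its counts are uncertain.

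The remaining MMP genes were mostly silent in this line. Of 14 other secreted MMP genes, 7 were listed at 0 in all 6 libraries, among them the stromelysin gene MMP3, the matrilysin gene MMP7 and the macrophage elastase gene MMP12, and 5 more had too few counts to be tested. MMP9, gelatinase B and a known NF-κB target, stood at 3.75, 2.58 and 2.32 CPM in overexpressing libraries, against 3.08, 0.463 and 1.80 CPM in wild type libraries (log2 fold change 0.71, SE 0.55, edgeR adjusted p = 0.54). Its wild type libraries were spread so widely that the groups overlapped. The collagenase gene MMP13, which lies in the same cluster on chromosome 11 as MMP1, stood at 1.32, 1.42 and 2.04 CPM in overexpressing libraries, against 1.86, 2.45 and 2.52 CPM in wild type libraries (log2 fold change -0.50, SE 0.31, edgeR adjusted p = 0.42).

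Of 2 further membrane MMP genes, MMP25, which like MMP17 has a glycolipid anchor, stood at 0.0734, 0.922 and 0.560 CPM in overexpressing libraries, against 0.265, 0.265 and 0.638 CPM in wild type libraries. The groups overlapped (edgeR adjusted p = 0.78), and the log2 fold change, 0.49 with an SE of 0.71, was -0.16 without overexpressing replicate 2. The 6 leukocyte markers summed to 0.881, 3.92 and 2.68 CPM in the same overexpressing libraries, against 1.75, 3.84 and 3.27 CPM in wild type libraries; their part in the value was not tested. MMP23B had 2 counts in each group. Of 7 other inhibitors, RECK, a membrane-bound inhibitor of MMP14, MMP2 and MMP9, was well expressed at 22.2 ± 1.22 CPM in overexpressing and 23.2 ± 1.67 CPM in wild type cells (SD, n = 3 each; log2 fold change -0.06, SE 0.11, edgeR adjusted p = 0.84). SPOCK3, a testican gene, averaged 0.27 CPM in overexpressing and 0.853 CPM in wild type cells (edgeR adjusted p = 0.13), and TIMP4 and PZP were listed at 0.

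Activators and cell surface partners of the MMPs gave 0 higher and 2 lower of 20 tested, against 4.28% of all genes tested. Their median log2 fold change was -0.06, and 9 of the 20 passed with the block, against 22.7% of all genes. The product of FURIN can cut sites of the type shown above, and cleavage of those shown was not examined here. FURIN fell to 62.0, 57.3 and 50.7 CPM in overexpressing libraries, against 88.6, 82.8 and 75.0 CPM in wild type libraries (log2 fold change -0.54, SE 0.10, edgeR adjusted p = 0.023). Its 50 neighbours on chromosome 15 had a median of -0.31, and with them as an offset FURIN had a value of -0.22 and did not pass. PLAU, whose product urokinase makes the plasmin that can activate secreted MMPs, fell to 405, 485 and 376 CPM in overexpressing libraries, against 680, 515 and 662 CPM in wild type libraries (log2 fold change -0.55, SE 0.13, edgeR adjusted p = 0.047). When 1 library was left out, FURIN passed only without overexpressing replicate 1 and PLAU only without wild type replicate 2. PLAU also did not pass with the offset (-0.56).

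The other 18 partners tested did not pass. Of all 20 tested, 2 were higher and 5 lower with no overlap between groups, against 12.1% and 13.5% of all genes tested. The 2 higher were CAV1 (466 against 381 CPM in wild type, edgeR adjusted p = 0.1) and ITGB1 (632 against 572 CPM, edgeR adjusted p = 0.38). With the block CAV1 passed (0.29) and ITGB1 did not (0.15). ITGB3, an integrin subunit gene, stood at 1.64 ± 0.177 CPM in overexpressing and 3.06 ± 0.449 CPM in wild type cells (SD, n = 3 each; log2 fold change -0.90, SE 0.27, edgeR adjusted p = 0.095), with no overlap, and passed with the block (-0.90). BSG, the surface inducer of MMPs also called EMMPRIN, stood at 565 ± 63.7 CPM in overexpressing and 571 ± 31.6 CPM in wild type cells (SD, n = 3 each; edgeR adjusted p = 0.95). CD44, a surface partner and substrate of MMP14, stood at 557 ± 8.14 CPM in overexpressing and 620 ± 24.9 CPM in wild type cells (SD, n = 3 each; edgeR adjusted p = 0.30), and its groups did not overlap; with the block CD44 passed (-0.15). PCSK7, a convertase related to furin, stood at 30.7 ± 3.52 CPM in overexpressing and 34.3 ± 5.97 CPM in wild type cells (SD, n = 3 each; edgeR adjusted p = 0.63).

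**Figure D4:**
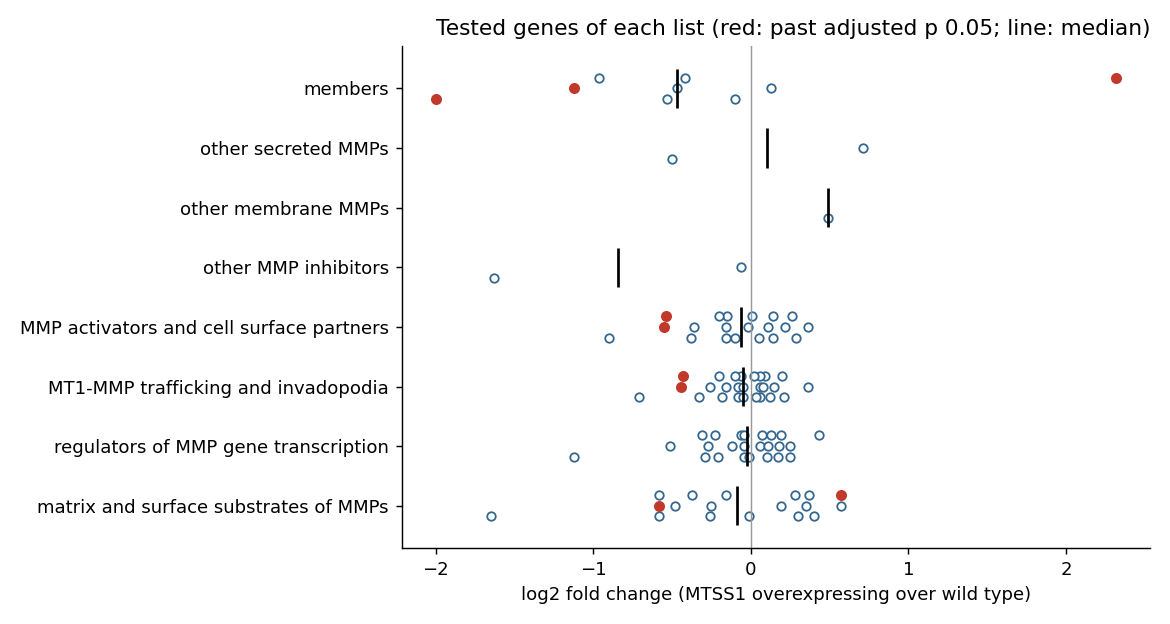
Log2 fold changes, MTSS1 overexpressing over wild type, of the tested genes of each list, red where the edgeR adjusted p was under 0.05, with the median as a line. The medians of the lists of activators, trafficking genes, transcription regulators and substrates lie at -0.06, -0.05, -0.02 and -0.08; those of the short lists lie at -0.85 (2 other inhibitors tested), 0.49 (1 other membrane MMP tested) and 0.10 (2 other secreted MMPs tested). The followed genes, 9 of them tested, were chosen on this contrast and had a median of -0.47.

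Of 26 tested genes that carry MMP14 to the surface or build invadopodia, the actin-rich protrusions where it acts, 0 passed higher and 2 lower. That is 7.69%, against 4.28% of all genes tested, and the median log2 fold change was -0.05. With the block 10 passed, against 22.7% of all genes. The groups did not overlap for 3 higher and 7 lower genes, against 12.1% and 13.5% of all genes tested. VAMP7, the vesicle fusion protein that delivers MMP14 to invadopodia, fell to 77.0 ± 2.72 CPM in overexpressing cells, against 105 ± 3.09 CPM in wild type cells (SD, n = 3 each; log2 fold change -0.44, SE 0.08, edgeR adjusted p = 0.014). Neighbours of VAMP7 near the end of chromosome X had a median of 0.66, and with that offset VAMP7 was at -1.10 and passed. VAMP7 has an identical copy on the Y chromosome in the reference, so its counts are uncertain. The scaffold gene IQGAP1 fell to 457 ± 29.6 CPM in overexpressing cells, against 615 ± 19.5 CPM in wild type cells (SD, n = 3 each; log2 fold change -0.43, SE 0.08, edgeR adjusted p = 0.022). It lies near FURIN among neighbours with a median of -0.31 and did not pass with that offset (-0.11). SH3PXD2A, the invadopodia scaffold TKS5, stood at 7.30 ± 0.603 CPM in overexpressing and 11.9 ± 2.53 CPM in wild type cells (SD, n = 3 each; log2 fold change -0.71, edgeR adjusted p = 0.065) and passed with the block (-0.69). Its paralog SH3PXD2B, the scaffold TKS4, stood at 55.6 ± 6.46 CPM in overexpressing and 43.3 ± 1.44 CPM in wild type cells (SD, n = 3 each; log2 fold change 0.36, edgeR adjusted p = 0.091), and also passed with the block (0.35). When 1 library was left out, VAMP7 passed only without wild type replicate 1 or 2, and IQGAP1 only without replicate 2 of either group.

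Transcription factors known to act on MMP genes gave 0 calls in 24 tested with edgeR, with a median of -0.02. SNAI2, also listed, had too few counts to be tested. It had 2, 1 and 0 counts in overexpressing libraries, against 11, 7 and 17 in wild type libraries, without overlap in CPM. At an unadjusted p under 0.05, 3 of the 24 passed, against 19.8% of all genes tested. Without both first libraries, 2 of 24 passed at that threshold, against 13.8% of all genes tested. With adjusted p, 1 passed with DESeq2, 2 of 25 tested with no filter, and 7 with the block. Over all genes, 7.34%, 5.19% and 22.7% passed in these fits. The smallest adjusted p was that of the ETS factor gene ETV4, at 24.7 ± 4.37 CPM in overexpressing and 35.2 ± 2.39 CPM in wild type cells (SD, n = 3 each; log2 fold change -0.51, SE 0.14, edgeR adjusted p = 0.076); it passed with the block (-0.52). FOS, an AP-1 gene whose product acts at the promoters of MMP1 and other collagenases, stood at 89.7, 34.7 and 81.3 CPM in overexpressing libraries, against 116, 28.6 and 104 CPM in wild type libraries, low in replicate 2 of both groups (edgeR adjusted p = 0.82). MMP1 was lowest in the same 2 libraries; a link between them was not tested. RELA, the NF-κB subunit of the study's title, stood at 112 ± 8.37 CPM in overexpressing and 113 ± 9.83 CPM in wild type cells (SD, n = 3 each; edgeR adjusted p = 0.97).

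Substrates gave 1 higher and 1 lower of 18 tested, with a median of -0.08; 9 passed with the block. The fibronectin gene FN1 rose to 49.2, 62.5 and 48.2 CPM in overexpressing libraries, against 35, 39.7 and 33 CPM in wild type libraries (log2 fold change 0.57, SE 0.13, edgeR adjusted p = 0.038). LAMB3, a chain of the epithelial laminin that MMP14 cuts, fell to 68.1, 63.6 and 55.0 CPM in overexpressing libraries, against 102, 96.6 and 79.7 CPM in wild type libraries (log2 fold change -0.58, SE 0.12, edgeR adjusted p = 0.028). FN1 did not pass when any 1 library was left out or with the offset (0.55). LAMB3 passed when overexpressing replicate 1 or wild type replicate 3 was left out, and in none of the other 4 such fits. Of 125 genes in the 7 lists, 93 were tested and 6 called, 1 higher and 5 lower, which is 6.45% against 4.28% of all genes tested. With the block 35 of the 93 passed, against 22.7% of all genes.

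**Figure D5:**
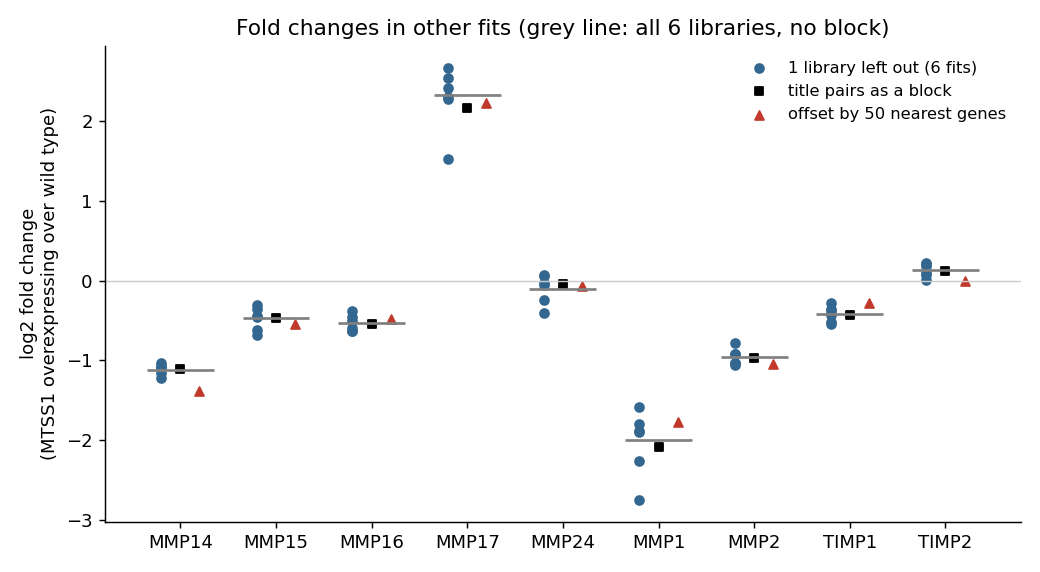
Log2 fold change of each gene, MTSS1 overexpressing over wild type, in the 6 fits that left out 1 library (blue), with the title pairs as a block (black) and with the offset by the 50 nearest tested genes (red); grey lines give the fit of all 6 libraries. MMP17 ranges from 1.52 to 2.67 and MMP1 from -2.75 to -1.59 when 1 library is left out, while MMP14 stays between -1.22 and -1.03.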

How the data were processed

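For 6 poly(A) libraries the authors deposited counts of reads per Ensembl gene, as whole numbers with no scaling. Per the submitters' processing notes, reads went through bcl2fastq, HISAT2 2.1.0 and HTSeq on the GRCh38 build; for annotation release and strand setting, the value is not given in the sources used here. The labels do not call the replicates separate cultures, and p-values then reflect the spread between libraries, which may be technical. Symbols, positions and exon lengths come from GENCODE 29 and a current name table, which gave a symbol to 56591 of 64253 identifiers.

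The test was that of edgeR 4.0.16, run in R 4.3.3 (TMM, filterByExpr, quasi-likelihood test, two-sided, Benjamini-Hochberg over 16091 genes, threshold 0.05). Alternatives were DESeq2 1.42.0, its size factors, no filter, each library left out, both first libraries left out, an offset by 50 neighbours, and title pairs as a block. Deviations from group means correlated within those pairs at 0.644, 0.319 and 0.36, and between -0.377 and 0.079 otherwise; deviations sum to 0 within a group, and the labels give no batch. No replicate pair agreed within counting error (chi-square over its degrees of freedom, 14.7 to 28.0). Floors cover counting error only. The 10 genes and all lists were chosen with earlier results of these data known. Named genes are the 10, up to 4 called genes per list by adjusted p (else the one with the smallest), 3 nearest profiles each for MMP14 and MMP17, and MTSS1; any other gene was named with its values in view.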

Additional observations from a re-analysis of the deposited data

How the results depend on the processing

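Only 3 libraries per group limit every call. Over all genes, 688 passed; 1188 passed with DESeq2, 1489 with no filter, 3651 with the title pairs as a replicate block, 337 with the neighbour offset, 132 without both first libraries, and 145 to 346 without 1 library. Of the 10 genes, 3 passed in edgeR's fit; 6 passed with DESeq2 (7.34% of genes), 6 with no filter (5.19%), 6 with the replicate block (22.7%), 1 without both first libraries (0.807%), and 1 to 3 without 1 library. The further 3 in the first 3 of these settings were MMP16, MMP2 and TIMP1. Of the listed pathway genes, 6 of 93 tested passed. With DESeq2, 11 of the 116 with a p-value passed, and with no filter 20 of 116 tested. Of 93 tested, 35 passed with the replicate block and 2 with the neighbour offset. Without both first libraries 0 passed (17 of 94 at an unadjusted p under 0.05, against 13.8% of all genes), and 0 to 6 passed without 1 library. The other size factors gave 684, 3 and 6.

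Direction was the same for each of the 9 tested genes and the 10 named pathway genes in all alternatives, except for MMP24 (-0.41 to 0.07 without 1 library: 0.06 without wild type replicate 1, 0.07 without wild type replicate 3, 0.13 without both first libraries), TIMP2 (-0.01 with the neighbour offset) and MMP25 (-0.16 to 1.03 without 1 library, the lowest without MTSS1 overexpressing replicate 2). Without both first libraries, MMP17 (2.47) and MMP1 (-1.81) lost their calls and MMP14 kept its own. The cause of these shifts was not tested. MMP15, MMP24, MMP25 and TIMP3 rest on few counts.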
